A study of Homo sapiens with 6 samples.

Results

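The genes described here encode the nuclear pore and the proteins that carry cargo through it. The members, 43 of the 57820 gene rows measured, are the rows whose identifiers map to a list of symbols: 25 nucleoporin genes, with a copy of 1 of them, and 18 genes of the RAN cycle, the importins and the exportins. The cells were U266, an established line of human multiple myeloma. RNA was measured in 3 controls and in 3 samples that overexpress the transcription factor MYC from a lentiviral vector with the EF1A promoter. The labels give no vector for the controls, no clone and no time after transduction, so transduction and MYC cannot be told apart. Whether a group's samples are separate cultures is not stated either, and p-values measure only the spread between these samples, which may be technical. All samples were grown in the same serum-containing medium.

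The nuclear pore is a channel through the nuclear envelope, built from many copies of each nucleoporin. A scaffold of outer rings, made of the Y complex, and an inner ring anchors unstructured nucleoporins rich in phenylalanine-glycine repeats, which line the channel. Importins and exportins bind cargo, pass these repeats and are loaded and unloaded by the small GTPase RAN. RCC1 on chromatin charges RAN with GTP in the nucleus, and RANGAP1 at the cytoplasmic face triggers its hydrolysis, so that import receptors release cargo inside and exportins release it outside. Plasma cells and myeloma cells, like all nucleated cells, use the same machinery, and XPO1 is a drug target in myeloma.

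MYC itself was at 3.91, 4.16 and 4.51 CPM in the control libraries and 105, 110.3 and 92.1 CPM in the MYC libraries, for a log2 fold change of 4.60 ± 0.10 (SE, adjusted p = 9.71e-08). Summed expected counts per library ran from 27139978 to 158667309, a 5.85-fold range, with MYC library 1 the shallowest. Of the plasma cell markers examined, all 8 were tested, and 1 rose and 5 fell (2 and 6 with the GC offset described below). Among all tested genes 28.8% rose and 32.1% fell (29% and 30% with the offset). The summed level of the 8 markers was 2001 to 2218 TPM in control and 1387 to 1432 TPM in MYC libraries. TPM is a level scaled for gene length, and CPM is a count scaled for library size and composition. The 4 B cell markers were each under 1 TPM in every library, with a sum of 0.320 to 0.470 TPM in control and 0.520 to 0.950 TPM in MYC libraries. The summed markers of T and NK cells were 9.72 to 12.6 TPM in control and 12.9 to 15.5 TPM in MYC libraries. Those of epithelial cells were 4.02 to 4.77 and 7.46 to 8.68 TPM, those of myeloid cells 1.61 to 2.30 and 1.01 to 1.59 TPM, and those of stromal cells 2.88 to 3.37 and 1.98 to 2.36 TPM. Their part in the results was not tested. In such bulk samples, fewer cells of a type and less RNA per cell cannot be told apart.

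Most pore and transport genes were higher in the MYC libraries, by less than 2-fold. All 43 passed the expression filter, and 35 rose, 4 fell and 4 were not called at an adjusted p under 0.05 (edgeR), where 28.8% of the 17679 genes tested rose and 32.1% fell. The 4 that fell were NUP62, NUP210, AAAS and RANGAP1, and the 4 that were not called were NUP188, NUP214, RANBP1 and IPO4. In 35 members all 3 MYC libraries lay above all 3 controls, as in 32.1% of all tested genes, and in 4 they lay below, as in 35.1%. The median log2 fold change was 0.41 over the members and -0.02 over all tested genes. Of the 35 members that rose, 14 did so by at least 1.5-fold, and with the GC offset described below 3 members did (NUP205, RGPD3 and RCC1). At least 2-fold was reached by 1 member, RGPD3, whereas 18% of all tested genes were called with a change of that size in either direction. The spread within groups was small: the median coefficient of variation of CPM over the members was 5.09% in control and 4.27% in MYC libraries, with the largest, 26.3%, for RANGAP1 in the MYC libraries.

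**Figure D1:**
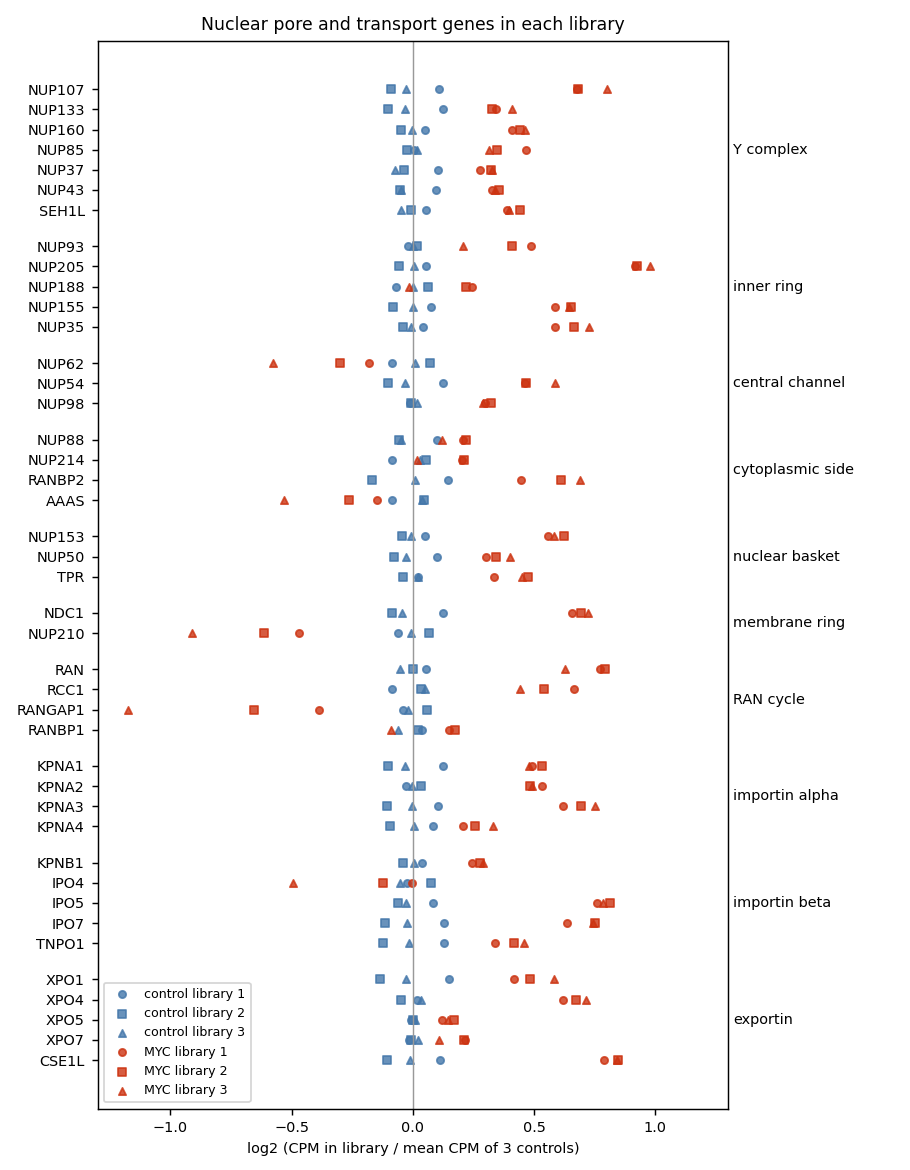
Level of 42 members in each of the 6 libraries, as log2 of the CPM over the mean CPM of the 3 controls (x axis), with genes grouped by their place in the pore or transport cycle (y axis). Blue marks control and red marks MYC libraries, with a symbol for each library number. The red symbols lie right of all blue ones for 34 of these genes and left of them for NUP62, AAAS, NUP210 and RANGAP1 (CPM without a GC offset). RGPD3 is not drawn because its change is off this scale.

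The fold changes followed the base composition of the transcripts, so many values are also given after a GC offset, which removes each library's own trend of log2 CPM on GC content. Across the 43 members, Spearman's rho between GC content and log2 fold change was -0.68 (a description across genes, which share libraries and are not independent), and over all tested genes it was -0.56. After the offset it was -0.31 over the members. All 25 members under 45% GC rose, where 47.8% of all tested genes in that range rose and 8.43% fell. Of 12 members from 45 to 55% GC, 9 rose and none fell, where 30% of such genes rose and 23.1% fell. Of 6 members over 55% GC, 1 rose (RCC1) and 4 fell, where 6.46% of such genes rose and 70.8% fell; with the GC offset those shares were 31.5% and 30.6%, and 3 of the 6 members were called higher and none lower. In all 6 of these, MYC library 3 was the lowest and MYC library 1 the highest of the MYC libraries. The members' median GC content was 43.5%, against 49.1% for all tested genes. Within bins 2 percentage points of GC wide, 39 of the 43 members had a higher log2 fold change than the median tested gene, and 4 (NUP88, AAAS, NUP210 and RANGAP1) a lower one.

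With the GC offset 35 members were again called higher, none was lower by edgeR (0 also at an unadjusted p under 0.05) and 8 were not called, where 29% of all tested genes were called higher and 30% lower. The members' median log2 fold change was then 0.24. Both ways, 30 members rose. NUP37, NUP88, KPNA4, XPO5 and XPO7 passed the test only without the offset, and NUP62, NUP188, NUP214, RANBP1 and IPO4 only with it, as higher. Over 17 other settings, among them other scalings, other tools, TPM and each library left out, 27 members were called higher in every one. Without MYC library 3, 38 members were called higher, and over all libraries left out in turn the number was 32 to 38.

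**Figure D2:**
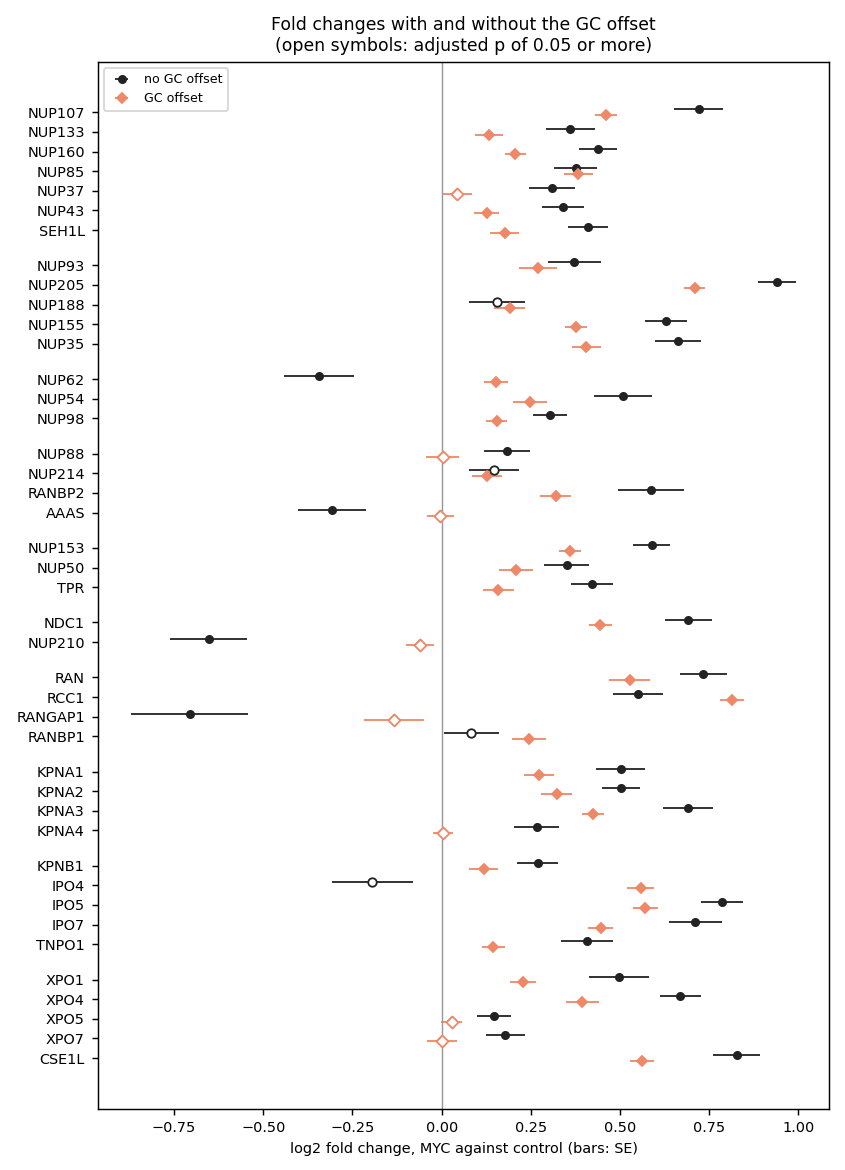
Log2 fold change of MYC against control libraries (x axis, bars are standard errors, n = 3 libraries per group) for 42 members (y axis), without (black circles) and with the GC offset (orange diamonds); open symbols did not pass an adjusted p of 0.05. NUP62, AAAS, NUP210 and RANGAP1 are below 0 in black, and with the offset NUP62 is above 0 and the others are not called; IPO4 moves from -0.19 to 0.56.

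**Figure D3:**
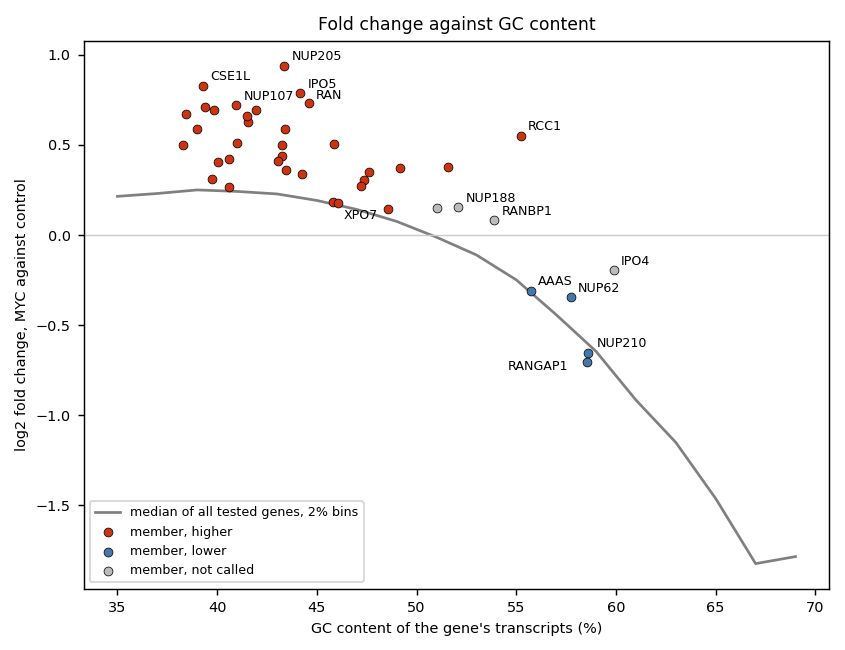
Log2 fold change of MYC against control libraries (y axis, no GC offset) against the GC content of each gene's transcripts in percent (x axis) for 42 members, with the median of all tested genes in bins 2 percentage points wide (grey line). Of all 43 members, 39 lie above the median of their bin; NUP88, AAAS, NUP210 and RANGAP1 lie just below it. RGPD3 is not drawn.

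The genome reference holds a promoter window, 250 bases before to 50 after an annotated start, for 37 of the 43 members, 48 windows in all. The canonical E-box, CACGTG, which MYC with MAX is known to bind, was searched in them; its letters read the same on both strands. It occurred in 8 of the 37 members (21.6%), against 8.77% of all symbols with a window and 12.3% of those tested here. By window, the shares were 16.7% of the members' and 7.26% of all windows. The 8 were RAN, RCC1, KPNA3, IPO4, IPO7, XPO1, NUP50 and NUP188. The 250 bases before the start are printed 5′ to 3′ for 5 of them, with the motif in capitals, since they include the GTPase, its exchange factor, an adaptor and a receptor that rose, and the only window with a pair of motifs. The sequences are RefSeq's on GRCh38.p14: RAN at chr12:130871816-130872065, RCC1 at chr1:28517976-28518225 (the second of its annotated starts), IPO7 at chr11:9384402-9384651 and NUP188 at chr9:128947449-128947698 on the plus strand, and KPNA3 at chr13:49792683-49792932 on the minus strand.
RAN: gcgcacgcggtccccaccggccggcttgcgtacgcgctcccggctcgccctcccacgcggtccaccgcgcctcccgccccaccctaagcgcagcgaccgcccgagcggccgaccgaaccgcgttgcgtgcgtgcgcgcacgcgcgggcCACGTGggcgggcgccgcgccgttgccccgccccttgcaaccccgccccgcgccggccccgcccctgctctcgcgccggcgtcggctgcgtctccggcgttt
RCC1: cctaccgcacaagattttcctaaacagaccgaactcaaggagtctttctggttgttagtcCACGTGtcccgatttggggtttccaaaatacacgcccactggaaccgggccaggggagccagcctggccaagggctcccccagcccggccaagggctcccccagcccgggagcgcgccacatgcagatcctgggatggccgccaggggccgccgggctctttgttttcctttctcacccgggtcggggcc
IPO7: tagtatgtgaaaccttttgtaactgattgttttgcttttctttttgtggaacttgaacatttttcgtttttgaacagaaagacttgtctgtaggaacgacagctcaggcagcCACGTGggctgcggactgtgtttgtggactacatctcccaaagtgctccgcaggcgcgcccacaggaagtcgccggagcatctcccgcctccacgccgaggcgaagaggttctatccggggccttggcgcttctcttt
KPNA3: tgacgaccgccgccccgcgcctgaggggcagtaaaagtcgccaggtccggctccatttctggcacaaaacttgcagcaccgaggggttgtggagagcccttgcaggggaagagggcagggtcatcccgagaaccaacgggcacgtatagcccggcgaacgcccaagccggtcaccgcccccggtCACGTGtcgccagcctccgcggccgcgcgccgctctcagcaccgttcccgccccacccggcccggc
NUP188: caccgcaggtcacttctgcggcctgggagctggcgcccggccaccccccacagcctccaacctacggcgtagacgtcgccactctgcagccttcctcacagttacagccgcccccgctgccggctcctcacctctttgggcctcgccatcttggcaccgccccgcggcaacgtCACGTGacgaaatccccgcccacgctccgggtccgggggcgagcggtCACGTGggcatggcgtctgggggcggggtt

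The first base of the motif lay 102 bases before the start in RAN, 190 in RCC1, 138 in IPO7, 66 in KPNA3, and 77 and 30 in NUP188. In the windows not printed it lay 174 bases before the start in NUP50, 44 in XPO1 and 29 in IPO4. Of the 8 members with the motif, 6 rose and none fell without the GC offset, with a median log2 fold change of 0.52. With the offset all 8 were called higher, with a median of 0.44. Of the 29 members with a window and no motif, 24 rose and 4 fell without the GC offset, with a median of 0.42. With the offset none of these fell and all were called higher but NUP37, NUP88, XPO5, AAAS, NUP210 and RANGAP1, with a median of 0.25. Among all tested genes 28.8% rose and 32.1% fell (29% and 30% with the offset). No difference between members with and without the motif was tested. These shares describe letters in a window, and binding was not measured.

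In the RAN cycle, RAN and RCC1 rose, RANGAP1 fell without the GC offset and RANBP1 was not called without it. RAN, the GTPase that gives transport its direction, was the most abundant member per length, at 761, 702 and 694 TPM in the control libraries and 1170.2, 1237 and 1169.8 TPM in the MYC libraries. By count it was at 508, 489 and 471 CPM in the control libraries and 835, 847 and 757 CPM in the MYC libraries. Every MYC library was well above every control, 1.66-fold in the fitted means, for a log2 fold change of 0.73 ± 0.07 (SE, adjusted p = 3.78e-05) and of 0.53 with the offset. RCC1, which loads RAN with GTP, was at 106, 116 and 117 CPM in the control libraries and 179, 164 and 153 CPM in the MYC libraries. Its groups did not overlap, and its log2 fold change of 0.55 ± 0.07 (SE, adjusted p = 0.000229) became 0.81 with the offset, the largest after RGPD3 among the members on that scale. RCC1 shares exons on the same strand with SNHG3, a noncoding host transcript whose log2 fold change was 0.72 and 0.55 with the offset, and the counts of such neighbours are estimates.

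RANGAP1, the GTPase activator, was at 228, 244 and 232 CPM in the control libraries and 179, 149 and 104 CPM in the MYC libraries. MYC library 3 was far below the other MYC libraries in CPM, though all lay below the controls. The difference, as a log2 fold change, was -0.71 ± 0.16 (SE, adjusted p = 0.00552), and with the GC offset it was -0.13 ± 0.08 and was not called. Per length the gene was at 108, 109 and 108 TPM in the control libraries and 76.7, 67.8 and 66.4 TPM in the MYC libraries, a narrower spread. TPM divides by the effective length described below. For RANGAP1 it was 2824, 2834 and 2819 bases in the control libraries and 2823, 2731 and 2082 bases in the MYC libraries. The low length in MYC library 3 raises the TPM of that library. RANBP1, which helps RANGAP1 to act on RAN, was at 101, 99.7 and 94.0 CPM in the control libraries and 109, 111 and 92.2 CPM in the MYC libraries. Its groups overlapped and the log2 fold change of 0.08 ± 0.08 (SE, adjusted p = 0.382) was not called, but it was 0.24 and called higher with the GC offset, was called higher with an effective length offset, and was called higher without MYC library 3 (0.17). RANBP1 shares exons with TRMT2A on the opposite strand, which fell (log2 fold change -1.69, -0.49 with the offset). The library kit does not mark strand, so reads from the stretch that the pair shares cannot be told apart.

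All 4 importin alpha genes among the members, adaptors that bind classical nuclear localization signals, rose without the GC offset, and 3 of them with it. KPNA2, the most abundant of them per length, went from 334 ± 4.58 to 463 ± 18.8 TPM (SD, n = 3 each). By count it was at 493, 515 and 502 CPM in the control libraries and 728, 704 and 708 CPM in the MYC libraries, for a log2 fold change of 0.50 ± 0.05 (SE, adjusted p = 8.44e-05) and of 0.32 with the GC offset. KPNA3 was at 43.1, 37.3 and 40.0 CPM in the control libraries and 61.6, 65.0 and 67.5 CPM in the MYC libraries, so that all MYC libraries were above all controls (1.61-fold; log2 fold change 0.69, 0.42 with the offset). KPNA1 rose 1.42-fold, a log2 fold change of 0.50 (0.27 with the offset). KPNA4 was at 192, 170.0 and 182 CPM in the control libraries and 209.6, 217 and 228 CPM in the MYC libraries. Its log2 fold change of 0.27 ± 0.06 (SE, adjusted p = 0.00615) became 0.00 and was not called with the offset, nor was it called on TPM.

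Of the 5 import receptors of the importin beta family among the members, 4 rose without the GC offset and all 5 with it. The call of KPNB1 with the offset was lost when any 1 of the control libraries, or MYC library 2, was left out (adjusted p = 0.0515, 0.126, 0.0870 and 0.0534, edgeR). KPNB1, the partner of the importin alphas, was the second most abundant member per length, at 594 ± 52.7 TPM in control and 737 ± 62.0 TPM in MYC libraries. Its CPM rose 1.21-fold, for a log2 fold change of 0.27 ± 0.06 (SE, adjusted p = 0.00327) and of 0.12 with the offset. IPO5, a receptor of histones and ribosomal proteins, was at 278, 252 and 258 CPM in the control libraries and 445, 462 and 453 CPM in the MYC libraries. The groups were far apart, 1.72-fold, for a log2 fold change of 0.79 ± 0.06 (SE, adjusted p = 1.64e-05) and 0.57 with the offset. A pseudogene of IPO5 held 1.66% as many counts as the gene, the largest such share among the 11 members that have pseudogenes in the files.

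IPO7, a receptor of ribosomal proteins and histones, was at 262, 221 and 236 CPM in the control libraries and 373, 403 and 401 CPM in the MYC libraries. It rose 1.64-fold, for a log2 fold change of 0.71 ± 0.07 (SE, adjusted p = 7.31e-05) and of 0.45 with the offset. TNPO1, the receptor of many RNA-binding proteins, rose 1.33-fold (log2 fold change 0.41, 0.14 with the offset). IPO4, another histone receptor, was at 114, 122 and 111 CPM in the control libraries and 115, 106 and 81.9 CPM in the MYC libraries. MYC library 3 was the lowest and the groups overlapped, and the log2 fold change of -0.19 ± 0.11 (SE, adjusted p = 0.168) was not called. With the GC offset its log2 fold change was 0.56 ± 0.04 and it was called higher, whereas on TPM it was called lower, at -0.31, and without MYC library 1 it was also called lower, at -0.29. At 59.9%, IPO4 had the highest GC content of the members.

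All 5 exportins among the members were called higher without the GC offset, and 3 with it. XPO6 and XPOT, exportins that are not members, were named after their values were seen. Neither was called without the offset (log2 fold change 0.18 and -0.11). With it XPO6 was called higher, at 0.19, and XPOT lower, at -0.36. CSE1L, which returns importin alpha to the cytoplasm, was at 124, 107 and 114 CPM in the control libraries and 199, 207 and 207 CPM in the MYC libraries. Its 1.77-fold rise, for a log2 fold change of 0.83 ± 0.07 (SE, adjusted p = 2.15e-05), was the largest among the transport factors without the offset; with it CSE1L was at 0.56, below RCC1 and IPO5. XPO1, the receptor of cargoes with leucine-rich export signals, was at 397, 326 and 351 CPM in the control libraries and 478, 501 and 536 CPM in the MYC libraries. All MYC libraries were above all controls, 1.41-fold, for a log2 fold change of 0.50 ± 0.08 (SE, adjusted p = 0.00095) and 0.23 with the offset. XPO4 was among the least abundant members, at 5.29 ± 0.267 TPM in control and 7.92 ± 0.701 TPM in MYC libraries, and rose 1.59-fold in CPM (log2 fold change 0.67, 0.39 with the offset).

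XPO5, the exporter of microRNA precursors, was at 152, 152 and 153 CPM in the control libraries and 166, 172 and 168 CPM in the MYC libraries. The groups were close but did not overlap, and the log2 fold change of 0.15 ± 0.05 (SE, adjusted p = 0.0273) was 0.03 and not called with the offset. XPO7 was at 76.6, 77.0 and 78.6 CPM in the control libraries and 89.9, 89.5 and 83.4 CPM in the MYC libraries, for a log2 fold change of 0.18 ± 0.05 (SE, adjusted p = 0.0193) that became 0.00 and was not called with the offset. Each kept its call in 5 of the 17 other settings, and each was not called when any 1 of control libraries 1, 2 and 3 and MYC libraries 1 and 2 was left out. XPO5 shares exons with POLR1C on the opposite strand, which rose (log2 fold change 0.33, 0.25 with the offset).

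All 7 members grouped here under the Y complex, the outer scaffold of the pore, rose, and 6 of them also did so with the GC offset. SEC13, a further gene of the complex that is not a member, fell both ways (log2 fold change -0.69, -0.53 with the offset). With the offset NUP133 was not called without control library 2 or 3, nor NUP43 without control library 3. NUP107 moved most, at 85.5, 74.4 and 77.8 CPM in the control libraries and 127, 127 and 138 CPM in the MYC libraries. The MYC libraries were all above the controls, 1.65-fold in the fitted means, for a log2 fold change of 0.72 ± 0.07 (SE, adjusted p = 4.96e-05) and of 0.46 with the offset. The other 6 members rose between 1.24-fold (NUP37) and 1.36-fold (NUP160). NUP85 was the only one of the 7 whose value did not shrink with the offset (log2 fold change 0.38, 0.38 with it). At 51.6% it had the highest GC content of the 7. With the offset the log2 fold changes of NUP133, NUP160, NUP43 and SEH1L were 0.13, 0.21, 0.13 and 0.18. NUP37 went from 40.6 ± 2.66 to 50.3 ± 0.939 CPM (SD, n = 3 each), for a log2 fold change of 0.31 ± 0.06 (SE, adjusted p = 0.00315), and was at 0.04 and not called with the offset.

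In the inner ring 4 of 5 genes rose, and all 5 with the GC offset. NUP205, a large scaffold nucleoporin, was at 162, 150.1 and 157 CPM in the control libraries and 295, 296 and 308 CPM in the MYC libraries. The libraries of each group lay close together and the groups were far apart, 1.92-fold, the largest rise after RGPD3 without the offset, with a log2 fold change of 0.94 ± 0.05 (SE, adjusted p = 4.52e-06). With the offset it was 0.71, below RCC1. NUP188, its paralog in the ring, was at 248, 272 and 260.4 CPM in the control libraries and 308, 303 and 257 CPM in the MYC libraries. MYC library 3 lay among the controls, and the log2 fold change of 0.15 ± 0.08 (SE, adjusted p = 0.122) was not called. It was called higher with the offset, at 0.19, and without MYC library 3, at 0.24. NUP188 shares exons with SH3GLB2 on the opposite strand, which fell without the offset (log2 fold change -0.93) and was at 0.08 and not called with it.

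NUP155, which links the inner ring to the membrane, rose 1.55-fold, for a log2 fold change of 0.63 ± 0.06 (SE, adjusted p = 4.37e-05), and 0.38 with the offset. NUP35, a membrane-binding partner of NUP155, went from 20.9 ± 0.604 to 33.0 ± 1.57 CPM (SD, n = 3 each; log2 fold change 0.66, 0.41 with the offset). NUP93, which holds the ring together, was at 115, 118 and 117 CPM in the control libraries and 163, 155 and 134 CPM in the MYC libraries. All MYC libraries were above the controls, with library 3 the lowest of them, and its log2 fold change came to 0.37 ± 0.07 (SE, adjusted p = 0.00253), and 0.27 with the offset.

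Among the members that line the central channel, NUP54 and NUP98 rose and NUP62 fell without the GC offset, and all 3 were called higher with it. NUP62, the core of the channel complex with NUP54 and NUP58, was at 309.5, 345 and 331 CPM in the control libraries and 289.9, 267 and 219.9 CPM in the MYC libraries. The MYC libraries were all below the controls, with library 3 the lowest, and its log2 fold change came to -0.34 ± 0.10 (SE, adjusted p = 0.0153). With the offset it was 0.15 ± 0.03 and was called higher. Per length NUP62 was at 156, 166 and 165 TPM in the control libraries and 182, 182 and 162 TPM in the MYC libraries, with the groups overlapping. NUP62 shares exons with IL4I1 on the same strand and with ATF5 on the opposite strand. Both fell, with log2 fold changes of -1.37 and -1.78 (-0.51 and -0.75 with the offset).

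NUP54, among the least abundant members, went from 8.97 ± 0.761 to 13.0 ± 1.19 TPM and rose 1.42-fold in CPM (log2 fold change 0.51, 0.25 with the offset). NUP98, which also serves mRNA export, was at 196, 196 and 199.5 CPM in the control libraries and 242, 247 and 241 CPM in the MYC libraries. The groups were clearly apart in CPM, for a log2 fold change of 0.30 ± 0.05 (SE, adjusted p = 0.000716), or 0.15 with the offset, but per length they overlapped, at 69.4, 70.1 and 75.2 TPM in the control libraries and 70.8, 71.5 and 65.0 TPM in the MYC libraries. On log2(TPM + 1) the log2 fold change was -0.05 and was not called.

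At the cytoplasmic side of the pore, where cargo is released and messenger RNA is stripped of its export factors, RANBP2, RGPD3 and NUP88 rose without the GC offset, AAAS fell and NUP214 was not called. RANBP2, the main filament protein, was at 222, 178 and 202 CPM in the control libraries and 273, 307 and 323 CPM in the MYC libraries. Every MYC library was above every control, for a log2 fold change of 0.59 ± 0.09 (SE, adjusted p = 0.000713), and 0.32 with the offset. NUP88, the partner of NUP214, was at 54.1, 48.5 and 48.8 CPM in the control libraries and 58.2, 58.8 and 54.8 CPM in the MYC libraries. The groups lay close together without overlapping, and the log2 fold change of 0.18 ± 0.07 (SE, adjusted p = 0.0374) was 0.00 and not called with the offset. NUP88 was also not called with library totals in place of scaling factors, without the expression filter, or without control library 2 or 3 or MYC library 1 or 2.

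NUP214 was at 143, 157 and 155 CPM in the control libraries and 175, 176 and 154 CPM in the MYC libraries, with overlapping groups. Its log2 fold change of 0.15 ± 0.07 (SE, adjusted p = 0.102) was not called, but it was called higher with the offset (0.13) and without MYC library 3 (0.21). With the offset, NUP214 was not called when any 1 of the other 5 libraries was left out. AAAS, which encodes aladin, was at 87.5, 95.8 and 95.2 CPM in the control libraries and 83.7, 77.4 and 64.3 CPM in the MYC libraries. The MYC libraries were below the controls, with library 3 the lowest, and the log2 fold change of -0.31 ± 0.09 (SE, adjusted p = 0.0207) was 0.00 and not called with the offset. AAAS was also not called without control library 3.

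RGPD3 is 1 of several near-identical copies of part of RANBP2, so that reads are shared out between them by estimation and its level is uncertain. Its expected counts were 50.4, 60.1 and 132 in the control libraries and 342, 2396 and 967 in the MYC libraries. By count it was at 0.900, 0.776 and 0.998 CPM in the control libraries and 12.9, 15.4 and 17.8 CPM in the MYC libraries, and its TPM was 0.230, 0.180 and 0.240 in control and 2.91, 3.56 and 4.40 in MYC libraries. It stayed the least abundant member in both groups, and its 17.1-fold rise, for a log2 fold change of 4.10 ± 0.15 (SE, adjusted p = 5.68e-07), was the largest among the members (3.82 with the offset). RGPD3 took 0.372%, 0.394% and 0.449% of the expected counts of RANBP2 and its 7 copies in the control libraries and 4.07%, 4.33% and 4.75% in the MYC libraries.

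Of these 8 genes 7 were tested, and RGPD4 did not pass the expression filter. All 7 rose without the GC offset and 5 with it, where 28.8% and 29% of all tested genes rose. The copies share reads, so their calls are not independent. RGPD5 (0.108, 0.918 and 0.0605 CPM in control) and RGPD8 (0, 0.129 and 0.0302 CPM in control) were near the floor there. Both passed the filter through their MYC libraries, so a rise was partly set in advance. RGPD5 kept its call in 7 of 16 other settings. The summed level of the 8 genes would not change with a different split of reads among them. It was 244, 197 and 222 CPM in the control libraries and 318, 355 and 374 CPM in the MYC libraries. That is a 1.58-fold ratio of means. Without RGPD3 the ratio was 1.52. RANBP2 itself held 90.3% to 91.0% of the expected counts in control and 85.9% to 86.3% in MYC libraries.

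**Figure D4:**
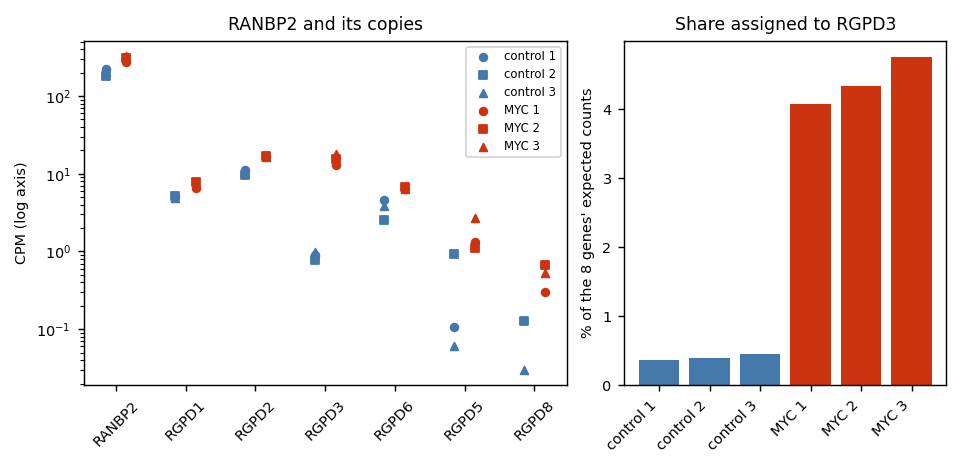
Left, CPM on a log axis of RANBP2 and the 6 copies that were tested, in each library (blue control, red MYC, symbols by library number); libraries at 0 are not drawn. Right, the share of the expected counts of RANBP2 and its 7 copies assigned to RGPD3 in each library, in percent. RANBP2 is by far the most abundant, and the RGPD3 share is 0.372% to 0.449% in control and 4.07% to 4.75% in MYC libraries.

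All 3 nuclear basket genes rose, with and without the GC offset. NUP153, which anchors the basket, was at 115, 108 and 111 CPM in the control libraries and 164, 171 and 166 CPM in the MYC libraries, with the groups far apart and a log2 fold change of 0.59 ± 0.05 (SE, adjusted p = 3.51e-05), and 0.36 with the offset. NUP50, a cofactor of importin alpha release, was at 92.7, 81.8 and 84.8 CPM in the control libraries and 106, 109.7 and 114 CPM in the MYC libraries, for a log2 fold change of 0.35 ± 0.06 (SE, adjusted p = 0.00146), and 0.21 with the offset. TPR, which forms the basket's filaments, was at 346, 332 and 346 CPM in the control libraries and 431, 474 and 466 CPM in the MYC libraries, for a log2 fold change of 0.42 ± 0.06 (SE, adjusted p = 0.000355), and 0.16 with the offset. Neither NUP50 nor TPR was called on log2(TPM + 1), where the log2 fold changes were 0.18 and 0.21.

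Of the 2 membrane-spanning nucleoporins among the members, NDC1 rose and NUP210 fell without the GC offset. POM121, a membrane nucleoporin that is not a member, is described with the further genes below. NDC1, which helps to insert pores into the envelope, was at 77.8, 67.2 and 69.2 CPM in the control libraries and 112, 116 and 118 CPM in the MYC libraries. Its groups did not overlap, and its log2 fold change came to 0.69 ± 0.07 (SE, adjusted p = 5.34e-05), and 0.44 with the offset. NUP210, known to vary between cell types, was at 1375, 1503 and 1428 CPM in the control libraries and 1037, 937 and 764 CPM in the MYC libraries. Per length it was the most abundant nucleoporin in control, at 268 ± 3.67 TPM. In MYC libraries it was at 165 ± 17.2 TPM, and its difference from NUP62, at 175 ± 11.7 TPM, was smaller than either SD. The MYC libraries were all far below the controls in CPM, 1.57-fold in the fitted means, with library 3 the lowest. The log2 fold change of -0.65 ± 0.11 (SE, adjusted p = 0.000853) had the smallest adjusted p among the members that fell, but with the offset it was -0.06 ± 0.04 and was not called.

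The order of the members by TPM was much the same in both groups at its ends. RAN, KPNB1 and KPNA2 were the 3 most abundant in control and in MYC libraries, and KPNA3, NUP54, XPO4 and RGPD3 the 4 least. RAN and KPNB1 lay apart by more than their SD in control (719 ± 36.4 against 594 ± 52.7 TPM) and further apart in MYC libraries (1192 ± 38.4 against 737 ± 62.0 TPM). RANGAP1 went from rank 7 to rank 17 and NUP205 from rank 18 to rank 10. Many neighbours in the middle of the order differed by less than their SD, as did IPO7 (53.8 ± 6.30 TPM) and NUP205 (53.0 ± 3.75 TPM) in control.

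The effective length, in bases, is a readout of its own: the authors' mean over a gene's isoforms, weighted by their estimated use. It was tested on a log2 scale with limma. Among the 43 members 1 was called longer and 2 shorter, where 1.88% of all tested genes were called longer and 3.78% shorter, and 34 members changed by less than 0.1 on the log2 scale. NUP62 was shorter, at 2655, 2616 and 2621 bases in the control libraries and 1924, 1828 and 1809 bases in the MYC libraries (log2 ratio -0.51 ± 0.03 SE, adjusted p = 0.00823). The groups did not overlap, and with an offset for this length the log2 fold change of NUP62 was 0.14 and not called. NUP155 was also called shorter (log2 ratio -0.10, adjusted p = 0.0320) and RCC1 longer (0.09, adjusted p = 0.0461), but neither call was kept when any 1 of the 6 libraries was left out, and NUP155 was not called with library medians subtracted either. NUP62 kept its call with each library left out. Over all tested genes, the 333 longer and 668 shorter became 112 and 115 without control library 1, 42 and 41 without control library 2, 32 and 50 without control library 3, 78 and 202 without MYC library 2, and 178 and 481 without MYC library 3.

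NUP98 had the largest difference that was not called, at 3779, 3525 and 3468 bases in the control libraries and 4134, 4291 and 4923 bases in the MYC libraries (log2 ratio 0.31, adjusted p = 0.104). TPR and NUP160, at log2 ratios of 0.16 and 0.18, were not called either (adjusted p = 0.0557 and 0.0703). Isoform use was not analysed here.

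**Figure D5:**
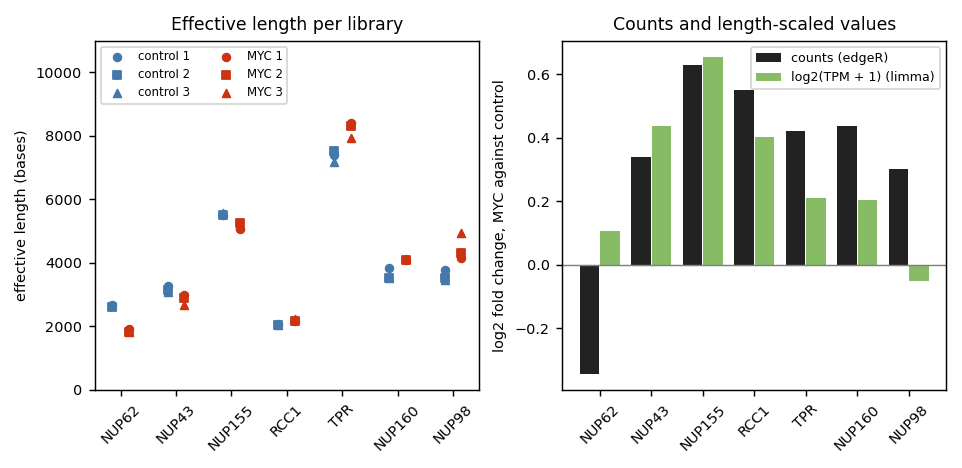
Left, effective length in bases in each library for 7 members (blue control, red MYC, symbols by library number). Right, log2 fold change of MYC against control for the same members from counts (edgeR, black) and from log2(TPM + 1) (limma, green). NUP62 is shorter in all 3 MYC libraries and its fold change is -0.34 on counts and 0.11 on TPM, and that of NUP98 is 0.30 and -0.05; with the GC offset on counts they are 0.15 and 0.15.

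Some counts are less certain because genes overlap. Exons of 13 members overlap those of another tested gene, which is protein-coding for NUP62, NUP88, NUP188, RANBP1, IPO4 and XPO5. REC8, which overlaps IPO4 on the opposite strand, fell without the GC offset (log2 fold change -0.83) and was at -0.15 and not called with it. IPO4 also shares exons on the same strand with AL136295.4, another tested protein-coding gene, whose values are not given here. RPAIN, which overlaps NUP88, was at 0.04 (-0.04 with the offset) and was not called either way.

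Other genes of the pathway moved both ways. Beside the counts of each list below, 28.8% of all tested genes rose and 32.1% fell (29% and 30% with the GC offset). Of 11 further nucleoporin genes and assembly factors 9 were tested, 5 rose and 2 fell (3 and 2 with the GC offset). With the offset these counts are near the shares over all tested genes. AHCTF1, which seeds pores on chromatin, rose from 176 ± 10.9 to 257 ± 17.0 CPM. Its log2 fold change was 0.55 ± 0.07 (SE, adjusted p = 0.000219), or 0.28 with the offset. NUP58, the third protein of the channel complex, also rose (0.33, 0.10 with the offset). SEC13, which serves both the Y complex and the coat of vesicles leaving the endoplasmic reticulum, fell, with a log2 fold change of -0.69 ± 0.13 (SE, adjusted p = 0.00174), or -0.53 with the offset. TMEM33, a membrane protein of the endoplasmic reticulum, rose without the offset (0.31) and was at 0.04 and not called with it. POM121, a membrane nucleoporin with near-identical copies, was named after its values were seen, as the other gene that fell without the offset. It was at -0.28 without the offset and was called higher, at 0.26, with it. NUP42, also named after its values were seen, was at 0.12 and not called without the offset. It was called lower, at -0.12, with it.

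Of 19 further receptors and RAN cofactors 16 were tested, 9 rose and 3 fell (7 and 3 with the GC offset), and the 9 became 4 without control library 2 or without control library 3 and 5 without MYC library 2. IPO11 and IPO9, import receptors, rose (0.47 and 0.42; 0.20 and 0.26 with the offset). RANGRF, a RAN-binding protein, fell from 33.3 ± 0.886 to 20.5 ± 1.82 CPM (-0.70, -0.24 with the offset). RANBP3, an XPO1 cofactor, fell without the offset (-0.46) and was at 0.03 and not called with it. IPO13, named after its values were seen as the third that fell, was at -0.33 without the offset and was called higher, at 0.18, with it. With the offset XPOT and HIKESHI fell besides RANGRF (-0.36 and -0.27), and they were also named after their values were seen. Neither was called without the offset (-0.11 and -0.01). The median log2 fold change was 0.17 over the tested genes of the first of these lists and 0.18 over those of the second (0.08 and 0.07 with the offset).

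Of 22 mRNA export genes, all tested, 12 rose and 4 fell (14 and 2 with the GC offset), with a median log2 fold change of 0.19 (0.18 with it). ENY2, THOC7, THOC3 and NCBP2 rose, with log2 fold changes of 0.55, 0.65, 0.65 and 0.44 (0.28, 0.40, 0.57 and 0.20 with the offset). ENY2 is a subunit of the export complex at the basket, THOC3 and THOC7 of the complex that loads export factors on transcripts, and NCBP2 of the cap-binding complex. The 4 that fell were named after their values were seen. CHTOP fell with and without the offset (-0.28, -0.43 with it), and THOC6 was at -0.63 and, not called, at 0.13 with it. ALYREF and DDX39A fell without the offset (-0.38 and -0.34) and were called higher with it (0.17 and 0.34). THOC1, also named after its values were seen, was called lower with the offset (-0.14) and was not called without it (0.13). The nucleoporins, with 20 of 25 members called higher and 3 lower without the offset, and the transport factors, with 15 of 18 higher and 1 lower, had median log2 fold changes of 0.38 and 0.50 (0.21 and 0.30 with the offset). No difference between these lists was tested.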

How the data were processed

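Poly-A RNA of 6 U266 samples, 3 control and 3 MYC-overexpressing, was sequenced from libraries of a kit that does not mark strand. Per the submitters' processing notes, cutadapt, TopHat2 and GRCh37 were used; versions, and which annotation, were not given in the sources used here. The deposited tables are RSEM gene tables, per the file headers, and hold an expected count per gene, which shares reads between similar genes. The authors' deposited TPM adjusts for effective length and library total, and length and effective length are deposited in bases.

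Expected counts were rounded and tested with edgeR 4.0.16 (R 4.3.3): default expression filter, TMM factors, group only, quasi-likelihood F test, Benjamini-Hochberg adjustment over 17679 genes, called under 0.05. The SE is derived from the F statistic. The fit was tested on 10 simulated data sets, in which false calls made up a larger share of the calls than the threshold allows. Far fewer genes were changed in them than were called here, so the size of that share does not carry over. An adjusted p just under the threshold is still read here as weaker evidence than its value states. TPM and effective length were tested with limma 3.58.1 on log2(value + 1) or log2(value + 0.1) for TPM and on log2 for length. For the GC offset, a loess curve of log2 CPM on GC content (span 0.4) was subtracted library by library, fitted on genes with a mean CPM of at least 5. GC content is that of the GENCODE 29 transcripts listed for each gene, matched by identifier, with a value for all 43 members. Of the 57820 rows, 51996 matched a symbol, with 98.3% of the counts. Libraries of a group differed beyond sampling noise, at 7.78 or more in chi-square per degree of freedom. Intervals for counting error are not given, since reads carry no molecular identifiers. DESeq2 1.42.0 and the other settings are compared in the closing section.

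The members and lists were chosen with earlier results of these data known. All members could be named, with full values for the 3 smallest adjusted p-values in each direction, any member changed at least 2-fold and members whose call turned in an alternative, and up to 4 called genes per further list.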

Additional observations from a re-analysis of the deposited data

How the results depend on the processing

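Over the 43 members and the 17 other settings, 657 of the log2 fold changes kept their direction and their side of the threshold, 49 kept the direction and were no longer called, 14 became called and 11 changed sign. The settings were each library left out, a GC offset, a replicate block, both together, an offset for effective length, RLE factors, library totals, DESeq2, TPM with pseudocounts of 1 and 0.1, all genes unfiltered, and genes filtered at a mean CPM of 5. The number of members higher was 29 to 38 over these; the cause of changes between settings was not tested.

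The number of members lower was 0 with the GC offset, 0 for the replicate block with the GC offset, and 0 to 1 when each library was also left out (RANGAP1, without MYC library 1). NUP62 changed sign to 0.11 with log2(TPM + 1) and with log2(TPM + 0.1), 0.14 with the effective length offset, 0.15 with the GC offset, 0.15 with the block and GC offset, and 0.13 to 0.17 with the GC offset and each library left out. NUP98 changed sign to -0.051 with either TPM pseudocount and to -0.017 with the effective length offset. IPO4 changed sign to 0.56 with the GC offset, 0.56 with the block and GC offset, and 0.52, 0.54, 0.55, 0.56, 0.57 and 0.59 with the offset and each library left out. With the GC offset and a library left out, values near 0 also changed sign: NUP88 to -0.023, -0.015, -0.0069 and -0.0063, KPNA4 to -0.0022 and -0.0011, AAAS to 0.031, and XPO7 to -0.024, -0.015 and -0.0034; XPO7 was at -0.00022 with the block and GC offset.

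Further nucleoporins called higher numbered 3 with the GC offset, 3 with the block and GC offset and 2 to 4 with the offset and a library left out; those called lower then numbered 1 to 2. Further receptors called higher numbered 4 to 9 over the libraries left out, with 4 without control library 2 or 3 and 5 without MYC library 2. The mRNA export genes called lower numbered 2 with the GC offset, 2 with the block and GC offset and 1 to 3 with the offset and a library left out. With a mean CPM of at least 5, 3694 of 10563 genes tested were lower, against 5671 of 17679 with the default filter. The labels tie no replicate number to a shared source, and deviations of same-numbered libraries correlated at -0.047, 0.078 and 0.11, so the numbers were not taken to pair the samples. With the replicate block 32 members were higher and 4 lower (35 and 0 with the GC offset as well), against 35 and 4 without it, with NUP88, XPO5 and XPO7 not called (adjusted p = 0.0671, 0.0878 and 0.0640, edgeR), and not every library correlated best with its own number. For effective length the block left 0 genes longer and 0 shorter (limma), with 1178 and 2211 at an unadjusted p under 0.05, and NUP62 at an adjusted p of 0.0656. Leaving out each library with the GC offset was chosen after seeing the data.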
